A study of Mus musculus with 8 samples.

Results

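The endoplasmic reticulum (ER) folds the proteins that a cell secretes or places in its membranes, and 33 genes of its chaperones, stress sensors and degradation machinery were examined here. The genes were taken by symbol, and all 33 were found among the 41325 symbols that each of the 8 libraries lists. RNA-seq was carried out on C3H10T1/2 cells, a line of mouse mesenchymal stem cells (MSCs) able to become fat cells. Post-confluent cells (day 0) were compared with cells at day 5, after treatment with insulin, dexamethasone and isobutylmethylxanthine, then insulin alone, then medium with serum. The 4 lines were shControl cells, whose genotype is given as WT, and the stable lines shKDM4D, shNFIB and shMLL1, in which an shRNA targets the histone demethylase KDM4D, the transcription factor NFIB or the H3K4 methyltransferase MLL1. The study's methods describe the knockdown lines as isolated puromycin-resistant clones, so the shRNA and the clone cannot be told apart, and 1 library per condition was sequenced.

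When unfolded proteins accumulate in the ER, 3 sensors in its membrane start the unfolded protein response (UPR). IRE1 (encoded by *Ern1*) splices the *Xbp1* mRNA, ATF6 is cut to release a transcription factor, and PERK (encoded by *Eif2ak3*) phosphorylates the initiation factor eIF2α. ATF6 and spliced XBP1 switch on chaperones and the genes of ER-associated degradation (ERAD), which returns misfolded proteins to the cytosol. Phosphorylated eIF2α lowers translation but raises that of *Atf4*. The kinase GCN2, which senses a lack of amino acids, phosphorylates eIF2α too, so the targets of ATF4 answer both to ER stress and to amino-acid shortage. Genes of the ATF4 pathway are therefore described beside the ER genes. Splicing of *Xbp1*, cleavage of ATF6 and phosphorylation are not seen in values per gene.

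Expression is given as RPKM, the reads of a gene corrected for its exon length and for the mapped reads of the library. RPKM values can be compared between genes of a library. Between libraries a ratio depends in part on the scaling, so other scalings were run beside the deposited values. The libraries held between 15842221 and 38202580 mapped reads, as recovered from the RPKM values. Of all symbols, 11513 had an RPKM over 1 in at least 1 library and are called expressed. Among the 33 ER genes, 32 were expressed. *Derl3*, a degradation factor of secretory tissues, was covered by 1 to 4 reads per library, too few for a ratio. A gene was called when its RPKM differed by more than 2-fold, and the 95% intervals given with log2 ratios are exact (Clopper-Pearson) and cover counting error only. No spread between cultures could be estimated, so no p-value is given.

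The cell type was checked against marker genes. The mesenchymal genes *Vim*, *Pdgfrb*, *Ly6a* and *Cd44* were expressed in all libraries, with *Vim* at an RPKM between 984 and 1512. *Nt5e* was at or near 0 throughout, with an RPKM of at most 0.0218. *Thy1* had an RPKM of 25.0 and 22.6 in shControl cells and of 11.8 and 11.1 in shMLL1 cells, but of at most 0.139 in shKDM4D and shNFIB cells. The summed RPKM of 6 adipocyte genes at day 5 was 796, 25.5, 0.936 and 2.86 in shControl, shKDM4D, shNFIB and shMLL1 cells, where 6, 4, 0 and 1 of the 6 genes had an RPKM over 1. At day 0 none did. The defining genes of leukocytes (*Ptprc*), endothelium (*Pecam1*), epithelium (*Epcam*) and muscle (*Myod1*) had an RPKM of at most 0.0332. Among the further markers, the leukocyte gene *Cd68* reached 1.64, and the epithelial genes *Cdh1* and *Krt14* reached 1.625 and 1.04. Each of these was over 1 in at least 1 library. None of these marker lists summed to more than 1.796 in a library. *Nfib* and *Kmt2a*, which encodes MLL1, were lower in the lines that target them, and *Kdm4d* was near its detection limit everywhere.

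The promoters of some ER genes carry short elements through which the UPR acts, and these are shown first. The ER stress element (ERSE) consists of CCAAT and CCACG with 9 bases between them, and ERSE-II of ATTGG and CCACG with 1 base between them. The RefSeq promoter table (GRCm38.p6, from 250 bases before to 50 bases after the start of each gene) held 28 of the 33 ER genes, and *Atf6*, *Derl1*, *Hyou1*, *Manf* and *Sec61a1* had no entry. On either strand, ERSE was found in 9 of the 28 promoters (32.1%) and in 37 of 27025 genes in the whole table (0.137%). The 9 genes were *Hspa5*, *Hsp90b1*, *Calr*, *Canx*, *Dnajc3*, *Creld2*, *Pdia6*, *Syvn1* and *Derl3*. In a list of further ER and UPR genes, described below, 0 of the 52 with an entry held ERSE. The share thus belongs to the genes examined here and not to ER genes at large. The sites of 4 chaperones are given below with 5 bases on each side, to show how alike the elements are; capitals mark the 2 parts of the element.
Hspa5: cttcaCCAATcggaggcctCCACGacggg
Calr: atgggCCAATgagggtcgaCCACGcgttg
Canx: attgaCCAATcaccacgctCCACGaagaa
Dnajc3: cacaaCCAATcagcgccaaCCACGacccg
These stretches lay at chr2:34772020-34772048 (*Hspa5*, plus strand), chr8:84847070-84847098 (*Calr*, plus strand, opposite to the gene), chr11:50325795-50325823 (*Canx*, minus strand) and chr14:118937822-118937850 (*Dnajc3*, plus strand). The element ended 46, 143, 126 and 86 bases before the RefSeq start of the gene, in the same order. Gene spans given below come from another annotation (GENCODE M21), whose starts can differ. The span of *Hspa5* there begins before this stretch and holds it.

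*Hsp90b1* was the ER gene with a pair of ERSE matches in 1 promoter. A stretch of 140 bases, chr10:86705525-86705664 on the minus strand, is shown because it holds both; capitals mark their parts, and the second element reads on the opposite strand.
Hsp90b1: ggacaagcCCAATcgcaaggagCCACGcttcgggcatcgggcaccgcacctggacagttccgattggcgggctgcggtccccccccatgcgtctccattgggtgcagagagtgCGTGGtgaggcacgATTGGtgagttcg
The 2 matches ended 193 and 88 bases before the RefSeq start. No annotated exon overlapped the stretch.

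ERSE-II was found in 2 of the 28 ER promoters (7.14%), those of *Herpud1* and *Dnajb11*, and in 0.0444% of all genes. Of the 52 further ER and UPR genes, 0 held it. The element through which ATF4 acts, the amino-acid response element (AARE), was searched as TGATG and AA with 1 base between them, a short pattern that 4.51% of all genes hold. Among the ER genes *Herpud1* was the only one with it (1 of 28, 3.57%). The share of ER genes with an AARE was thus not above that of all genes. The promoter of *Herpud1* held a match to an element of the UPR and a match to that of the ATF4 pathway. The 130 bases before the RefSeq start of *Herpud1* (chr8:94386299-94386428, plus strand) are shown because they hold both matches.
Herpud1: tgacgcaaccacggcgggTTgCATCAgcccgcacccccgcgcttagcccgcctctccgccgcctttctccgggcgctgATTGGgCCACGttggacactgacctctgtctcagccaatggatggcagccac
The first capitals mark the AARE, read on the opposite strand, and the later ones ERSE-II. For comparison, 14 of the 32 amino-acid stress genes with an entry (43.8%) held an AARE and none held ERSE or ERSE-II. The sites of *Herpud1* and 3 of these genes, each read on its own strand with 5 bases on each side, are given below; capitals mark the AARE.
Herpud1: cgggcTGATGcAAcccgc
Chac1: aggagTGATGcAAcggca
Trib3: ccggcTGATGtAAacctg
Asns: ccacaTGATGaAActtcc
They lay at chr8:94386312-94386329 (minus strand), chr2:119351044-119351061 (minus strand), chr2:152344034-152344051 (plus strand) and chr6:7693220-7693237 (minus strand). The XBP1 element TGACGTGG (UPRE) was found in none of the 28 ER promoters, in 6 of 52 further ER genes (11.5%) and in 0.714% of all genes. A match of letters does not show that a factor binds there.

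**Figure D1:**
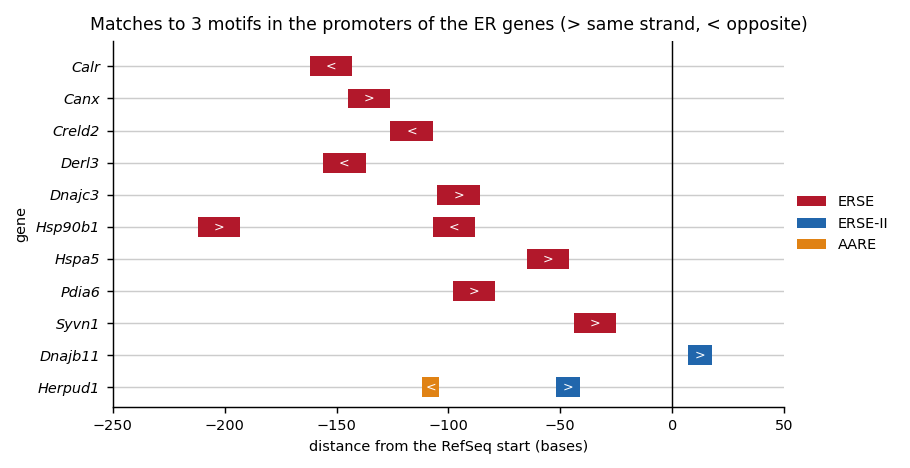
Position of motif matches in the promoters of the ER genes; the x axis gives the distance from the RefSeq start in bases and each row is 1 gene. ERSE matches (red) all lie before the start, those of Hsp90b1 in a pair, and Herpud1 alone holds an AARE (orange) beside an ERSE-II (blue).

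The ER genes spanned a wide range of levels, and a few made up most of the RNA. *Calr*, *Hsp90b1*, *P4hb*, *Serpinh1*, *Pdia3* and *Canx* gave between 75.7% and 79.8% of the summed RPKM of the 33 genes in every library. In shControl cells at day 0 *Calr* ranked 41 and *Hsp90b1* ranked 69 by RPKM among all expressed genes, whereas the sensor genes *Atf6*, *Eif2ak3* and *Ern1* ranked 6094, 6545 and 7350. The summed RPKM of the 33 genes was 3271 at day 0 and 4328 at day 5 in shControl, then 3353 and 4243 in shKDM4D, 3484 and 4871 in shNFIB, and 2626 and 4571 in shMLL1 cells. The sum was thus higher at day 5 in each of the 4 lines, and lowest in shMLL1 cells at day 0. These are bulk RNA values, in which fewer cells of a type and less RNA per cell cannot be told apart.

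**Figure D2:**
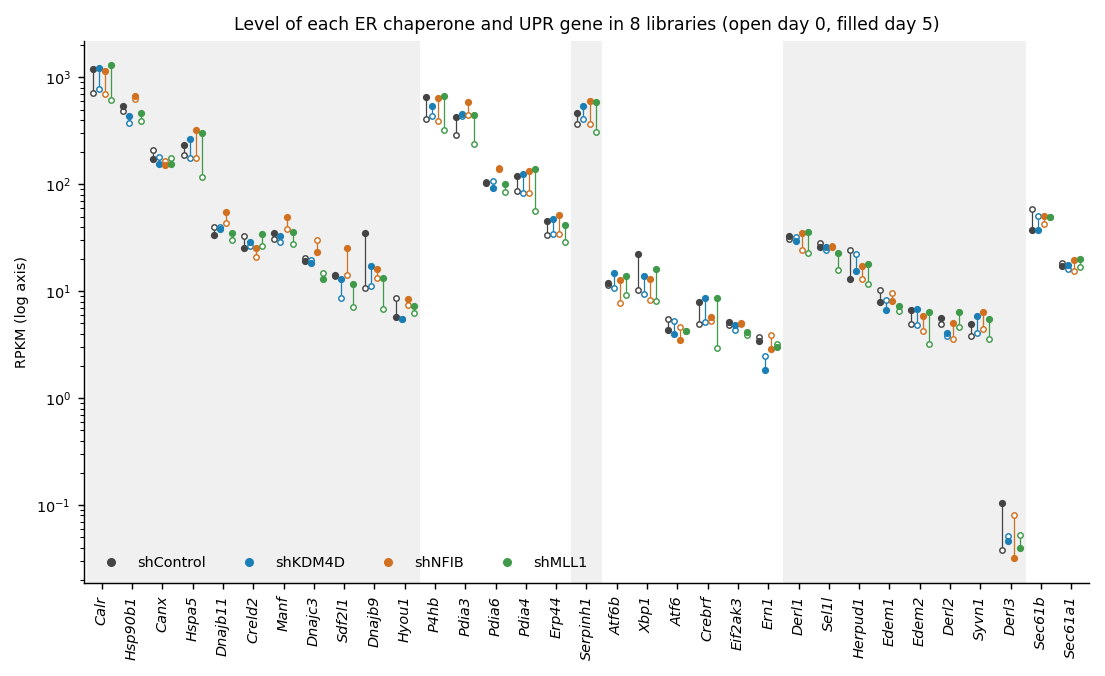
RPKM (log axis) of each of the 33 genes, grouped by role, with open circles for day 0, filled circles for day 5 and 1 color per line. The chaperone Calr reaches an RPKM of 1296, the sensor Ern1 stays between 1.84 and 3.89, and Derl3 lies near 0.

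The first question was how the ER genes differed between day 0 and day 5 within each line. Over the 33 genes the median difference in log2(RPKM + 0.1) was 0.11, 0.14, 0.35 and 0.51 in shControl, shKDM4D, shNFIB and shMLL1 cells. All expressed genes had medians of 0.03, 0.03, 0.09 and 0.17 in the same order. Of the 32 expressed ER genes, 2 (*Dnajb9* and *Xbp1*) were more than 2-fold higher at day 5 in shControl cells, where 13% of all expressed genes were. In shMLL1 cells 6 were (*Hspa5*, *Calr*, *P4hb*, *Pdia4*, *Crebrf* and *Edem2*), beside 20.4% of all, and in shKDM4D and shNFIB cells 0 were, beside 12.8% and 12.6%. None was more than 2-fold lower, against 8.56%, 8.44%, 4.96% and 6.89% of all expressed genes. The share of ER genes called was not above the background in any line or direction, and the 6 of 32 in shMLL1 cells lay near it. At a limit of 1.5-fold, 5, 5, 8 and 15 of the 32 were higher (15.6%, 15.6%, 25% and 46.9%), beside 22.7%, 21.9%, 22.4% and 32.2% of all expressed genes. At that limit 3, 0, 0 and 0 were lower, beside 17.5%, 16.8%, 12.6% and 15.6%. On the higher side at 1.5-fold, the ER share was thus above the background in shMLL1 cells and near it in shNFIB cells. It was below the background in shControl and shKDM4D cells.

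The direction was shared across the lines for part of the genes. With the counting interval on 1 side of 0 in each line, 13 of the 32 expressed genes were higher at day 5 in all 4 lines, as were 24.8% of the 11449 expressed genes with an exon length. They were *Hspa5*, *Hsp90b1*, *Calr*, *Dnajb9*, *Manf*, *P4hb*, *Pdia3*, *Pdia4*, *Erp44*, *Serpinh1*, *Xbp1*, *Edem2* and *Syvn1*. *Canx* and *Dnajc3* were lower at day 5 in all 4 lines (20% of those genes were), 10 genes were higher in some lines and lower in others (15.9%), and 7 had an interval that included 0 in at least 1 line and no opposite directions. After quantile normalization 11 of the 13 were above 0 in all 4 lines, since *Hsp90b1* in shNFIB cells came to -0.04 and *Pdia3* in shKDM4D cells to 0.00. The counting interval narrows as reads increase. A gene with many reads thus enters these counts at a smaller difference, as *Hsp90b1* did in shNFIB cells at 0.08. The shares of all genes were not matched for read number.

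**Figure D3:**
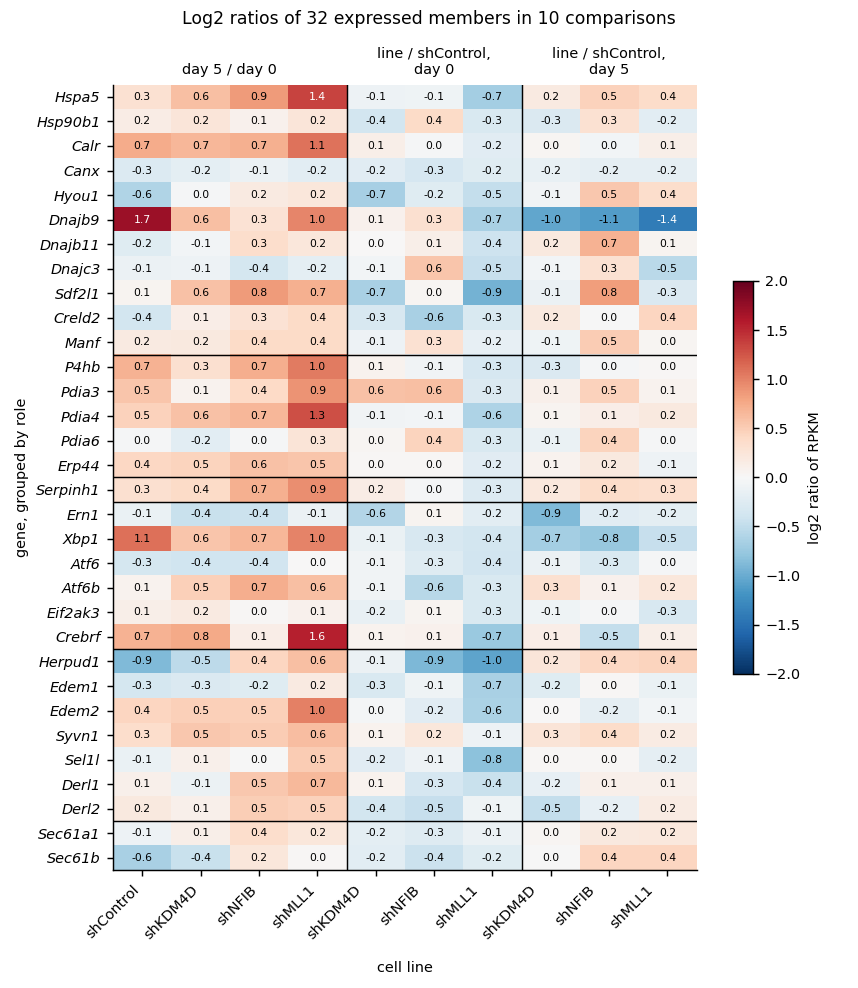
Log2 ratios of RPKM for the 32 expressed genes (rows, grouped by role) in 10 comparisons (columns), red for higher and blue for lower in the numerator. The shMLL1 column of the day 5 to day 0 panel is the reddest, its day 0 column against shControl is nearly all blue, and Dnajb9 is blue in all 3 lines at day 5.

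The folding chaperones were examined first. *Hspa5* (chromosome 2, 34771970 to 34777547 of GRCm38) encodes BiP, the main HSP70 of the ER, which also keeps the sensors inactive. Its RPKM was 188 at day 0 and 233 at day 5 in shControl, then 175 and 265 in shKDM4D, 178 and 321 in shNFIB, and 118 and 301 in shMLL1 cells. The shMLL1 library was the lowest at day 0, and at day 5 all 3 knockdown libraries were above shControl cells. The log2 difference between the days was 0.31 (95% interval 0.28 to 0.34), 0.60 (0.57 to 0.63), 0.85 (0.82 to 0.88) and 1.35 (1.33 to 1.38) in these lines. The change in shMLL1 cells exceeded that in shControl cells by 1.04 on the log2 scale (1.01 to 1.08), and that in shNFIB cells by 0.50 (0.46 to 0.54). Against shControl cells, *Hspa5* in shMLL1 cells was at -0.67 (-0.70 to -0.64) at day 0 and at 0.37 (0.35 to 0.40) at day 5. It passed 2-fold in shMLL1 cells under quantile normalization (1.11) and median-of-ratios scaling (1.19) as well.

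*Hsp90b1* (chromosome 10, 86690209 to 86705509) encodes GRP94, the HSP90 of the ER. Its RPKM was 482 and 537 in shControl, then 373 and 439 in shKDM4D, 629 and 666 in shNFIB, and 391 and 465 in shMLL1 cells. Both shNFIB libraries were above all others, and both shKDM4D libraries were below shControl cells at the same day. The difference between the days was small in each line, from 0.08 (0.06 to 0.10) in shNFIB, which turned to -0.04 under quantile normalization, to 0.25 (0.23 to 0.27) in shMLL1 cells. Thus BiP and GRP94, whose promoters both hold ERSE, differed in the size of their change in shMLL1 cells. Exons of other gene records overlap 15.7% of the exon bases of *Hsp90b1*.

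*Calr* (chromosome 8, 84841850 to 84846934) encodes calreticulin, a lectin that retains glycoproteins until they are folded. Its RPKM was 714 and 1192 in shControl, then 779 and 1230 in shKDM4D, 704 and 1153 in shNFIB, and 613 and 1296 in shMLL1 cells. The day 5 libraries were all above the day 0 libraries. The log2 difference was 0.74, 0.66 and 0.71 in the first 3 lines and 1.08 (1.07 to 1.09) in shMLL1 cells, which fell to 0.91 with median-of-ratios scaling. *Canx*, which encodes the membrane-bound partner calnexin, went the other way, with an RPKM between 167 and 209.9 at day 0 and between 153 and 174 at day 5.

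*Dnajb9* (chromosome 12, 44205559 to 44210326) encodes ERdj4, a cofactor of BiP and a well known target of spliced XBP1. Its RPKM was 10.7 and 35.2 in shControl, then 11.3 and 17.1 in shKDM4D, 13.3 and 16.1 in shNFIB, and 6.80 and 13.3 in shMLL1 cells. The shControl library at day 5 stood above all others, and the knockdown libraries at day 5 reached at most 17.1. The log2 difference between the days was 1.72 (1.59 to 1.84), 0.60 (0.44 to 0.75), 0.28 (0.12 to 0.44) and 0.97 (0.83 to 1.11) in shControl, shKDM4D, shNFIB and shMLL1 cells. Against shControl cells at day 5, *Dnajb9* was at -1.04 (-1.16 to -0.93), -1.12 (-1.25 to -0.99) and -1.40 (-1.50 to -1.29). It was the ER gene with the largest difference from shControl cells at day 5 in each knockdown line. The adipocyte genes had their high values in the same shControl library, with *Fabp4* at an RPKM of 277 against at most 9.34 in the knockdown libraries, and their part in the level of *Dnajb9* was not tested.

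*Sdf2l1* (chromosome 16, 17130138 to 17132383) encodes a small protein of the BiP chaperone complex. Its RPKM was 13.8 and 14.2 in shControl, then 8.73 and 13.1 in shKDM4D, 14.1 and 25.3 in shNFIB, and 7.13 and 11.6 in shMLL1 cells. The gene was flat in shControl cells, with a difference of 0.05 (-0.17 to 0.27), and higher at day 5 in the 3 knockdown lines by 0.58 (0.32 to 0.85), 0.85 (0.63 to 1.06) and 0.71 (0.50 to 0.92). At day 0 it was below shControl cells in shKDM4D and shMLL1 cells, at -0.66 and -0.95 on the log2 scale. The remaining 5 folding genes did not pass 2-fold in any comparison either. *Hyou1*, which encodes a nucleotide exchange factor of BiP, had an RPKM between 5.46 and 8.73. *Dnajb11* and *Dnajc3*, which encode J-proteins of the ER, had RPKM ranges of 29.9 to 54.9 and 13.1 to 30.1, both highest in shNFIB cells. *Creld2* ranged from 20.9 to 34.4, and *Manf*, which encodes a secreted factor that binds BiP, from 27.7 to 49.96.

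The disulfide isomerases make and rearrange the disulfide bonds of secreted proteins, and 4 of the 5 genes of this group were higher at day 5 in all 4 lines (*Pdia3* in shKDM4D cells not so after quantile normalization). *P4hb* (chromosome 11, 120560298 to 120573253) encodes PDI, which is also the β subunit of collagen prolyl 4-hydroxylase. Its RPKM was 409 and 660 in shControl, then 431 and 541 in shKDM4D, 392 and 648 in shNFIB, and 326 and 668 in shMLL1 cells. The lowest day 5 value of *P4hb* was that of shKDM4D cells, where the difference between the days was 0.33 (0.30 to 0.35) against 1.04 (1.02 to 1.05) in shMLL1 cells. The latter came to 0.95 under quantile normalization and to 0.87 with median-of-ratios scaling, below the 2-fold limit.

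*Pdia4* (chromosome 6, 47796141 to 47813430) encodes ERp72. Its RPKM was 87.3 and 121 in shControl, then 83.1 and 125 in shKDM4D, 83.8 and 133 in shNFIB, and 56.6 and 139 in shMLL1 cells. The shMLL1 library was the lowest of the 4 at day 0, as with *Hspa5*, and here it was also the highest at day 5. The log2 difference was 0.47 (0.41 to 0.52), 0.59 (0.53 to 0.65), 0.67 (0.61 to 0.73) and 1.29 (1.24 to 1.34), and the last was past 2-fold under both other scalings (1.09 and 1.13). *Pdia3*, which acts with calreticulin and calnexin, ranged from 239.8 (shMLL1, day 0) to 586 (shNFIB, day 5), *Pdia6* from 84.3 to 142 and *Erp44*, which retains thiol-bearing proteins, from 28.7 to 51.2, with no 2-fold difference.

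*Serpinh1* (chromosome 7, 99345376 to 99353239) encodes HSP47, the chaperone of procollagen. Its RPKM was 369 and 463 in shControl, then 411 and 537 in shKDM4D, 365 and 599.8 in shNFIB, and 306 and 585 in shMLL1 cells. Each line was higher at day 5, by 0.33 (0.30 to 0.35), 0.38 (0.36 to 0.41), 0.72 (0.69 to 0.75) and 0.93 (0.91 to 0.95) on the log2 scale. A list of 19 genes of collagens (fibrillar ones and those of types IV and VI) and of collagen-modifying enzymes was set beside it. On the log2(RPKM + 0.1) scale the median of that list between the days was 0.91, 0.51, 0.85 and 1.39 in shControl, shKDM4D, shNFIB and shMLL1 cells. More than 2-fold higher were 9, 5, 9 and 11 of the 19 genes, beside 13%, 12.8%, 12.6% and 20.4% of all expressed genes. The list was not uniform, since in shMLL1 cells 18 genes were above 0 and 1 below, with a range from -1.54 to 2.93. *Col3a1* had an RPKM of 140.4 and 535 in shControl cells and of 118 and 763 in shMLL1 cells.

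The sensors were expressed at low levels, and none of them passed 2-fold in any comparison. *Ern1* (chromosome 11, 106394650 to 106487852) had an RPKM of 3.73 and 3.39 in shControl, then 2.49 and 1.84 in shKDM4D, 3.89 and 2.89 in shNFIB, and 3.22 and 2.98 in shMLL1 cells. The shKDM4D libraries were the lowest at each day, at -0.58 (-0.76 to -0.41) and -0.88 (-1.09 to -0.68) relative to shControl cells. *Atf6* (chromosome 1, 170704674 to 170867771) had an RPKM of 5.51 and 4.33, 5.25 and 3.97, and 4.59 and 3.501 in shControl, shKDM4D and shNFIB cells, and of 4.23 and 4.28 in shMLL1 cells. *Atf6* was lower at day 5 in the first 3 lines, with log2 differences of -0.35, -0.40 and -0.39, while the difference in shMLL1 cells, 0.01 (-0.09 to 0.12), had an interval that included 0. That value came to -0.27 under quantile normalization and to -0.15 with median-of-ratios scaling, so its direction rests on the scaling. *Eif2ak3* (chromosome 6, 70844515 to 70905245) had an RPKM of 4.78 and 5.17 in shControl, then 4.298 and 4.88 in shKDM4D, 4.99 and 5.08 in shNFIB, and 3.89 and 4.12 in shMLL1 cells. The differences between the days of *Eif2ak3* ranged from 0.03 to 0.18, those in shNFIB and shMLL1 cells turning below 0 under both other scalings. *Atf6b*, a relative of *Atf6*, ranged from 7.71 to 14.97.

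*Xbp1* (chromosome 11, 5520659 to 5525893), the transcription factor that IRE1 activates, had an RPKM of 10.3 and 22.1 in shControl, then 9.36 and 13.8 in shKDM4D, 8.28 and 13.1 in shNFIB, and 8.02 and 16.0 in shMLL1 cells. All lines were higher at day 5, shControl cells the most. The log2 difference was 1.10 (0.98 to 1.22), 0.56 (0.41 to 0.71), 0.66 (0.49 to 0.83) and 1.00 (0.89 to 1.11), and shMLL1 and shControl cells differed in it by -0.10 (-0.27 to 0.06). At day 5 the knockdown lines were at -0.69 (-0.81 to -0.57), -0.76 (-0.90 to -0.63) and -0.47 (-0.57 to -0.37) relative to shControl cells. *Xbp1* and *Dnajb9* were thus both highest in shControl cells at day 5, and no exon reads of the spliced form can be told from these values.

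*Crebrf* (chromosome 17, 26715650 to 26776635) encodes a regulator of CREB3, a membrane-bound transcription factor. Its RPKM was 4.89 and 7.89 in shControl, then 5.16 and 8.69 in shKDM4D, 5.21 and 5.69 in shNFIB, and 2.94 and 8.60 in shMLL1 cells. The day 0 value of shMLL1 cells was the lowest of the 8. The difference between the days was 0.69 (0.57 to 0.81), 0.75 (0.63 to 0.87), 0.13 (-0.02 to 0.27) and 1.55 (1.44 to 1.66). It was the largest difference of an ER gene in shMLL1 cells, and the gene was past 2-fold under both other scalings (1.29 and 1.39).

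**Figure D4:**
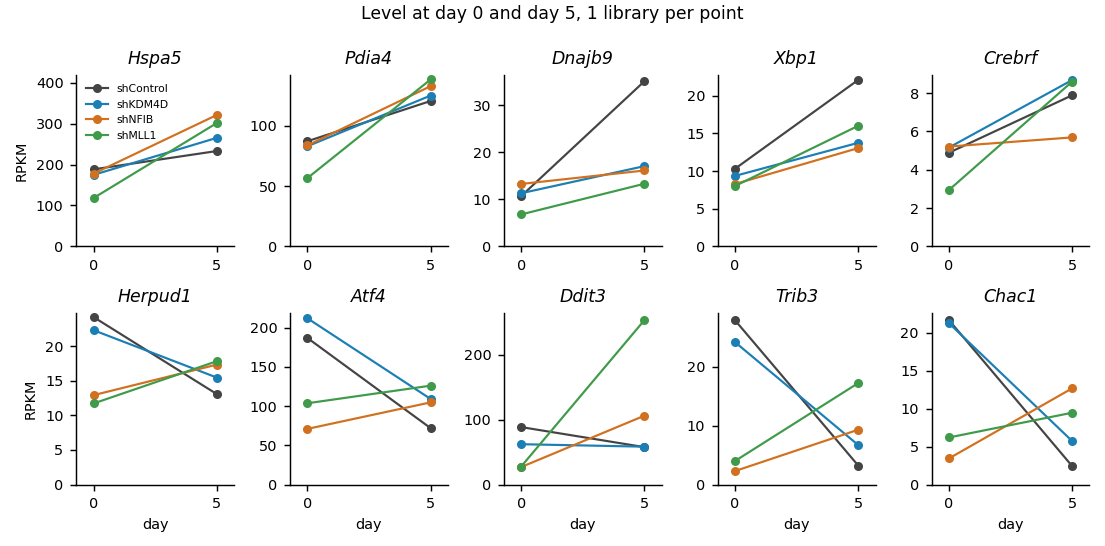
RPKM at day 0 and day 5 of 6 ER genes and 4 genes of the ATF4 pathway, with 1 line per cell line and 1 library per point. Dnajb9 and Xbp1 end highest in shControl cells, and the lines of Herpud1, Atf4, Trib3 and Chac1 cross, going down in shControl and shKDM4D cells and up in shNFIB and shMLL1 cells.

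Among the ERAD genes, *Herpud1* differed from the others. *Herpud1* (chromosome 8, 94386438 to 94395377) encodes HERP, an ER membrane protein that assembles the ubiquitin ligase complex. Its RPKM was 24.2 and 13.1 in shControl, then 22.3 and 15.4 in shKDM4D, 12.9 and 17.3 in shNFIB, and 11.7 and 17.8 in shMLL1 cells. It was lower at day 5 in shControl and shKDM4D cells and higher in shNFIB and shMLL1 cells, so that the order of the lines at day 0 was turned round at day 5. The log2 difference was -0.89 (-1.03 to -0.75), -0.53 (-0.67 to -0.39), 0.42 (0.26 to 0.59) and 0.61 (0.49 to 0.72). At day 0 it was at -0.91 (-1.05 to -0.77) in shNFIB and at -1.05 (-1.16 to -0.93) in shMLL1 cells relative to shControl cells, the latter at -0.99 under quantile normalization and -0.96 with median-of-ratios scaling. At day 5 it was above shControl cells in all 3 knockdown lines, by 0.24 to 0.45.

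*Edem2* (chromosome 2, 155701677 to 155729475), which encodes a protein of mannose trimming before degradation, had an RPKM of 4.99 and 6.74 in shControl, then 4.86 and 6.76 in shKDM4D, 4.27 and 5.92 in shNFIB, and 3.205 and 6.46 in shMLL1 cells. The 4 lines were close to each other at day 5, and shMLL1 cells were the lowest at day 0. The log2 difference in shMLL1 cells was 1.01 (0.84 to 1.18), and 0.75 and 0.85 under the other scalings. *Edem1*, of the same family, ranged from 6.47 to 10.2, and *Syvn1*, the ubiquitin ligase HRD1, from 3.59 to 6.34. *Sel1l*, its partner, was lowest in shMLL1 cells at day 0 (16.0) and between 22.8 and 28.2 in all other libraries. *Derl1* and *Derl2*, which encode derlins, ranged from 22.6 to 35.5 and from 3.59 to 6.36. The translocon genes *Sec61a1* (15.5 to 19.9) and *Sec61b* (37.1 to 58.2) form the channel by which proteins enter the ER, and *Sec61b* was lower at day 5 in shControl (58.2 and 37.2) and shKDM4D cells (50.4 and 37.1) but not in the other lines.

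Each knockdown line was then compared with shControl cells at the same day. These comparisons share the shControl library of that day, so they are given side by side and not as separate evidence. At day 0 the median of the 33 genes was -0.07, -0.06 and -0.31 in shKDM4D, shNFIB and shMLL1 cells, against 0.00, 0.03 and -0.07 for all expressed genes. In shKDM4D cells 0 ER genes were more than 2-fold higher (1.98% of all) or lower (4.26%), and in shNFIB cells likewise 0 were higher (2.95%) or lower (6.05%). In shMLL1 cells 0 were higher (1.67%) and 1, *Herpud1*, was lower (7.43%). That count lay below the background. In the same comparison 32 of the 33 genes (97%) were below shControl cells, beside 57.4% of all expressed genes, and 9 of the 32 expressed ones (28.1%) were so by more than 1.5-fold, beside 15.9%. In the list of 67 further ER and UPR genes described below, 62 (92.5%) were on the lower side as well, and 8 (11.9%) by more than 1.5-fold. All 11 folding genes (median -0.42), all 5 isomerase genes (-0.31) and all 6 sensor and transcription factor genes (-0.33) were on the lower side. *Derl3* alone was not, at 1 to 4 reads per library.

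At day 5 the medians were -0.05, 0.10 and 0.05 in shKDM4D, shNFIB and shMLL1 cells, against 0.01, 0.09 and 0.07 for all expressed genes. The value in shMLL1 cells turned to -0.05 under quantile normalization and to -0.01 with median-of-ratios scaling. *Dnajb9* was the 1 ER gene more than 2-fold lower in each line (4.57%, 5.67% and 4.02% of all expressed genes were), and 0 were higher (1.88%, 5.54% and 5.25%). The lower levels of shMLL1 cells at day 0 were thus not seen at day 5, when 18 of the 33 genes were above and 15 below shControl cells (57.6% and 42.3% of all expressed genes were). The same shMLL1 day 0 library also enters the differences between the days in that line. Its low day 0 levels and the larger differences between the days are therefore not separate evidence. In shNFIB cells the folding genes had a median of 0.31 and the sensors and transcription factors one of -0.26.

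The last question was whether the ER genes moved with the amino-acid stress genes. A list of 40 genes of the ATF4 pathway (transcription factors, amino-acid transporters, serine synthesis enzymes and tRNA synthetases) was examined in the same comparisons, 39 of them expressed. Between the days its median log2(RPKM + 0.1) difference was -1.48, -1.10, 0.43 and 0.25 in shControl, shKDM4D, shNFIB and shMLL1 cells. In shControl cells 28 genes of the list were more than 2-fold lower and 2 higher, and in shKDM4D cells 22 were lower and 0 higher. In shNFIB cells 0 were lower and 7 higher, and in shMLL1 cells 2 were lower and 9 higher. Of all expressed genes, 8.56%, 8.44%, 4.96% and 6.89% were lower in these 4 lines, and 13%, 12.8%, 12.6% and 20.4% higher. The ER genes, at medians of 0.11, 0.14, 0.35 and 0.51, stayed within a much narrower range. In shControl and shKDM4D cells the amino-acid genes were thus lower at day 5 while the ER genes as a group were not, and in shNFIB and shMLL1 cells both medians were above 0. In shMLL1 cells the amino-acid median was not stable, since it came to -0.09 under quantile normalization and to 0.09 with median-of-ratios scaling.

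*Atf4*, the factor that gives the pathway its name, had an RPKM of 187 and 71.9 in shControl, then 212 and 109 in shKDM4D, 70.9 and 105 in shNFIB, and 104 and 126 in shMLL1 cells. *Ddit3*, which encodes the stress factor CHOP and is listed in the files in 2 rows of which 1 holds all reads, had an RPKM of 88.5 and 57.6, 62.1 and 58.3, 26.9 and 106, and 27.7 and 253 in the same order. *Ddit3* in shMLL1 cells at day 5 was the highest of its 8 values, with a difference between the days of 3.19 (3.12 to 3.26). CHOP is a target of PERK signaling as well as of amino-acid shortage. In the same comparison *Hspa5* was at 1.35, the highest of the 11 ER folding genes. The median of these genes was 0.38, with 9 of them higher at day 5 and 2 lower. The source of the *Ddit3* difference was not tested.

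*Trib3*, a pseudokinase induced by CHOP and ATF4, had an RPKM of 27.9 and 3.21 in shControl, then 24.2 and 6.71 in shKDM4D, 2.29 and 9.33 in shNFIB, and 4.003 and 17.3 in shMLL1 cells. *Chac1*, a glutathione-degrading enzyme, had 21.7 and 2.43, 21.3 and 5.74, 3.44 and 12.7, and 6.20 and 9.47. Both genes crossed between the lines in the way that *Herpud1* did, but over a wider range, with *Trib3* differences of -3.12 (-3.39 to -2.86), -1.85 (-2.04 to -1.67), 2.02 (1.68 to 2.38) and 2.11 (1.93 to 2.29). *Asns* and *Psat1*, enzymes of asparagine and serine synthesis, were lower at day 5 in shMLL1 cells too. *Asns* was at -2.46, -1.98, 0.42 and -0.61, and *Psat1* at -2.56, -2.30, -0.14 and -1.21, so the enzymes and *Ddit3* had opposite directions in shMLL1 cells.

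Relative to shControl cells at day 0, the amino-acid median was -0.08, -1.20 and -0.84 in shKDM4D, shNFIB and shMLL1 cells. At day 5 it was 0.35, 0.68 and 0.74. At day 0, 26 of its genes were more than 2-fold lower in shNFIB cells and 16 in shMLL1 cells, where the ER genes had 0 and 1. Of all expressed genes, 6.05% and 7.43% were lower there. The ER median in shNFIB cells at day 0 was -0.06 beside the amino-acid median of -1.20, so the ER genes as a group were not lower where the amino-acid genes were lowest. In shMLL1 cells at day 0 both lists were below the median of all expressed genes.

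**Figure D5:**
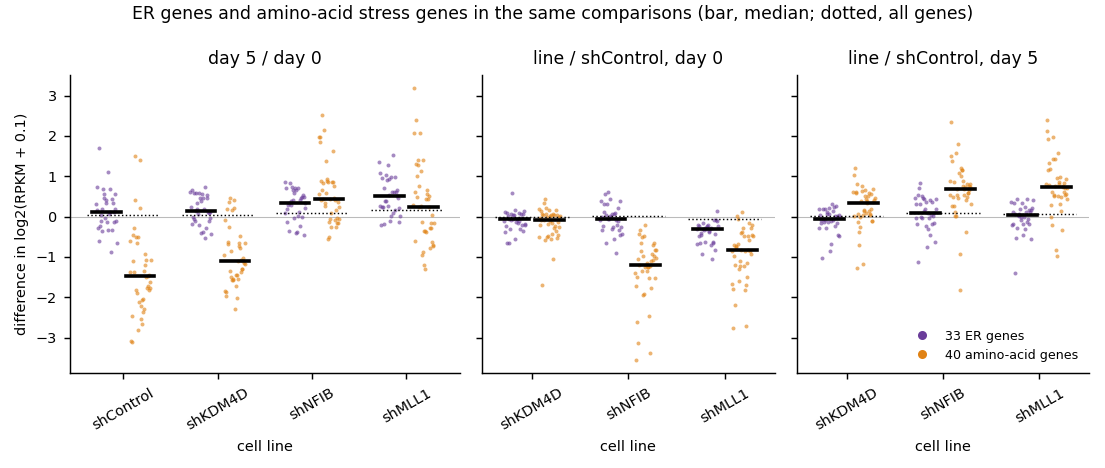
Difference in log2(RPKM + 0.1) of the 33 ER genes (purple) and the 40 amino-acid stress genes (orange) in the 10 comparisons; each point is a gene, bars are list medians and dotted lines the median of all expressed genes. The orange bars range from -1.48 to 0.74 and the purple ones from -0.31 to 0.51.

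Neighboring gene lists were set beside the 33 genes. A list of 67 further ER and UPR genes, all expressed, had medians between the days of 0.12, 0.14, 0.24 and 0.35. More than 2-fold higher were 3, 2, 4 and 9 of them, and 0, 2, 1 and 0 were lower. Of all expressed genes, 13%, 12.8%, 12.6% and 20.4% were higher and 8.56%, 8.44%, 4.96% and 6.89% lower. *Fkbp7*, an ER prolyl isomerase, was past 2-fold in each line, with an RPKM of 24.3 and 55.3 in shControl cells and of 13.8 and 51.2 in shMLL1 cells. *Ero1l*, the oxidase that recharges PDI, had an RPKM of 11.03 and 40.1 in shMLL1 cells. A list of 16 cytosolic and mitochondrial chaperones had medians of -0.31, -0.21, -0.14 and -0.41, below 0 in every line. *Hspd1*, the mitochondrial HSP60, was lower at day 5 in each line, from 156 to 97.5 in shControl cells and from 205 to 96.0 in shMLL1 cells. The 11 ER folding genes had medians of 0.05, 0.19, 0.28 and 0.38 in shControl, shKDM4D, shNFIB and shMLL1 cells. The value in shControl cells lay near that of all expressed genes, 0.03. Medians of the ER folding genes were thus above 0, in shControl cells only just, and those of the other chaperones below it.

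The ER genes with and without an ERSE or ERSE-II match were compared as a description. Between the days, the 10 expressed genes with a match (*Derl3* was left out for its few reads) had median log2(RPKM + 0.1) differences of -0.07, 0.04, 0.31 and 0.32 in shControl, shKDM4D, shNFIB and shMLL1 cells. The 17 genes without a match had 0.33, 0.38, 0.46 and 0.70. The ranges overlapped in every line, from -0.21 to 1.35 with and from -0.11 to 1.52 without a match in shMLL1 cells, and the group without a match held *Dnajb9*, *Xbp1*, *Pdia4*, *P4hb* and *Serpinh1*. Only exact matches in this window were counted, so a gene without a match can still hold a variant element or one elsewhere. The genes with a match had the lower median between the days in each of the 4 lines. Against shControl cells at day 5 they had the higher median. It was 0.12, 0.34 and 0.09 in shKDM4D, shNFIB and shMLL1 cells, beside -0.001, 0.02 and -0.06 without a match. At day 0 the medians were -0.08, 0.05 and -0.305 with and -0.07, -0.06 and -0.33 without a match. None of these differences was tested.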

How the data were processed

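RNA was sequenced from C3H10T1/2 cells (4 lines, day 0 and day 5, 1 library each). Reads were aligned by the authors to GRCm38 in CLC Genomics Workbench, and they deposited RPKM values per gene symbol; whether counting used strand is not given in the sources used here. Their methods name quantile normalization, but the deposited RPKM values summed to between 288456 and 324971 per library and differed in distribution, so quantile normalization was run as an alternative. Whole reads were recovered from RPKM, the union exon length of GENCODE M21 and the depth, with between 96.2% and 96.6% of values from 1 to 1000 reads within 0.02 of a whole number (for *Syvn1* they were not, so its reads are approximate). Clopper-Pearson intervals (scipy 1.17.1) cover counting error only, and PCR duplicates are not removed from it. Ratios of single genes used RPKM with no pseudocount, and medians of lists used log2(RPKM + 0.1). Calls needed an RPKM over 1 in at least 1 library and more than 2-fold. There were 10 comparisons and no test, and the scripts were tested on simulated data. Values are given in full for ER genes past 2-fold in any comparison and for 6 further genes of the chaperones and sensors, and other lists by counts, medians and up to 4 genes of largest difference. The genes and lists were chosen with earlier results of these data known. Promoters came from RefSeq (GRCm38.p6). Motifs were searched on both strands. *Ddit3* was read from the row that held its reads. Protein sequences were not analysed here.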

Additional observations from a re-analysis of the deposited data

Results flagged for a closer look

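Among the 15 ER genes given in full and 6 amino-acid stress genes (*Atf4*, *Ddit3*, *Trib3*, *Chac1*, *Asns* and *Psat1*), those that differed by more than 1.5-fold in opposite directions between day 0 and day 5 in 2 lines, with both counting intervals on 1 side of 0, are listed here. There is 1 library per condition, so the differences between lines were not tested. *Herpud1* was the 1 ER gene among them, at -0.89 in shControl and 0.61 in shMLL1 cells, a difference of 1.49. *Ddit3* in shNFIB and shMLL1 cells exceeded shControl cells by 2.60 and 3.81. *Trib3* in shNFIB cells exceeded shControl cells by 5.14 and shKDM4D cells by 3.88, and in shMLL1 cells by 5.23 and 3.96. *Chac1* in shNFIB cells exceeded shControl cells by 5.04 and shKDM4D cells by 3.78, and in shMLL1 cells by 3.77 and 2.50. All values are differences of log2 ratios of RPKM.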

How the results depend on the processing

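With 1 library per condition no difference has a replicate check. No paired analysis was possible because each condition has 1 library and the labels pair no replicates; the 4 lines differ in their shRNA and were not taken as replicates of the day. Changing the scaling moved the values between the days in shMLL1 cells most: the median of all expressed genes was 0.17 as deposited, -0.09 after quantile normalization and 0.01 with median-of-ratios scaling. In that comparison the ER median was 0.33 and 0.35, and the amino-acid median -0.0851, which turns its direction, and 0.0936. The translocon median came to -0.0408 with median-of-ratios scaling, and the amino-acid median in shControl cells to -1.59 after quantile normalization. Median-of-ratios scaling left 3 ER genes over 2-fold in shMLL1 cells (*Hspa5*, *Pdia4* and *Crebrf*), and quantile normalization 4 (*Calr* in addition). The call of *Herpud1* in shMLL1 cells at day 0 was lost (0 genes) under both scalings and with a pseudocount of 1, which also left 0 genes lower in shKDM4D cells at day 5. With no filter on RPKM, *Derl3* with its 1 to 4 reads added 1 gene, which made 1 lower between the days and 1 higher at day 0 in shNFIB cells, and 2 lower at day 5 in each knockdown line. A limit of 1.5-fold gave, between the days, 5 higher and 3 lower in shControl cells, and 5 (shKDM4D), 8 (shNFIB) and 15 (shMLL1) higher. Against shControl cells at day 0 it gave 2 lower (shKDM4D), 1 higher and 2 lower (shNFIB) and 9 lower (shMLL1). At day 5 it gave 3 lower (shKDM4D) and 2 higher and 2 lower (shNFIB). Against shControl cells the share of all expressed genes at 1.5-fold was computed only for the lower side of shMLL1 cells at day 0 (15.9%). The other counts against shControl cells have no such share beside them and are not read as a result. Among 210 values of named genes, 10 turned sign under at least 1 other setting, none of them over 0.0844 in size as reported. Of the 210, 71 left their counting interval under quantile normalization, 54 with median-of-ratios scaling and 14 with a pseudocount of 1. The printed intervals thus do not cover the choice of scaling. The causes were not tested beyond what each setting does.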

Other observations

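Outside the 33 genes, *Creb3l1*, which encodes OASIS, a membrane-bound relative of ATF6 linked to collagen secretion, differed between the lines. Its RPKM was 41.4 at day 0 and 28.8 at day 5 in shControl, 97.7 and 48.4 in shKDM4D, 71.7 and 53.2 in shNFIB, and 33.1 and 25.3 in shMLL1 cells. The shKDM4D and shNFIB libraries were above shControl cells at each day, and the shMLL1 libraries below. *Os9*, which encodes a lectin of ERAD, was higher at day 5, with 65.9 and 144 in shControl, 47.3 and 101 in shKDM4D, 46.95 and 109 in shNFIB, and 40.7 and 112 in shMLL1 cells.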
